A study of Mus musculus with 7 samples.

Results

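The 88 genes described here had lower FPKM in each of the 4 TAC+EMPA hearts than in any of the 3 TAC hearts, and differed little among the TAC hearts. FPKM is a fragment number scaled by transcript length and by library size. A gene was a member when Cuffdiff had given it the status OK, its mean FPKM over the 7 libraries was at least 2, its largest TAC value was at most 1.4 times its smallest TAC value, and its largest TAC+EMPA value was at most the smallest TAC value divided by 1.2. The members were 88 of 10570 genes with status OK and a mean FPKM of at least 2 (0.833%), in a table of 53460 genes. The measured values themselves chose the members, so the direction and the least size of their difference were fixed by the choice, and no test of that difference is given.

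Heart RNA was sequenced from C57BL/6 mice (C57BL/6Ncr in the treatment notes, C57BL/6NCrSlc in the methods) with transverse aortic constriction (TAC), in which a band tied around the aortic arch loads the ventricle with pressure. In the TAC+EMPA group (n = 4) the mice ate chow with empagliflozin (EMPA), which blocks SGLT2, the glucose carrier of the kidney tubule, over 5 days that began 2 weeks after surgery. The TAC group (n = 3) had the same operation and no empagliflozin. The labels give TAC at 12 weeks of age and an age of 14 weeks for all 7 samples, while the methods of the study place the operation at a younger age. No transgene or mutant allele was used, no sham-operated heart is among these 7 libraries, and the numbers of the replicates do not state from which litter or day a heart came. Since heart tissue holds many cell types, fewer cells of a type and less RNA per cell cannot be told apart.

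Under pressure overload the heart enlarges its muscle cells, forms and loses capillaries, and lays down matrix. Growing capillaries are led by endothelial tip cells, which carry receptors for VEGF, semaphorins, netrins and chemokines, extend actin-rich filopodia and rest on a basement membrane of type IV collagen, laminin and nidogen that they share with pericytes. Fibroblasts make the fibrillar collagens, fibrillin microfibrils and lysyl oxidases of the surrounding matrix.

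TAC 3 stood apart from the other TAC libraries, and the members have to be read with that in mind. Over the genes tested, the log2 values of TAC 3 correlated with the 4 TAC+EMPA libraries at r = 0.960 to 0.971, and with TAC 1 and TAC 2 at 0.928 and 0.922, as a description across genes that are not independent. TAC 3 was nearer to the mean of the TAC+EMPA libraries than to the mean of TAC 1 and TAC 2 for 8291 of the 10570 genes (78.4%). Among the members this held for 9 of 88 (10.2%), which the limit on the TAC spread makes few. Without TAC 3 the same rule chose 1852 genes (17.5%), 87 of the 88 members among them, and the one lost was 3110009E18Rik. Leaving out a heart can remove a member only through its mean FPKM, so their staying is fixed by the rule. The limma test over 12391 genes called 0 genes lower and 0 higher at an adjusted p under 0.05, with 1827 lower (14.7%) and 2349 higher (19%) at an unadjusted p under 0.05. Without TAC 3 it called 2932 lower and 3681 higher at an adjusted p under 0.05. The genes of heart muscle were at high levels in every library (Myl2, the ventricular myosin light chain, at 30558 to 37885 FPKM), except that Myh6, the main myosin heavy chain, is listed at 0 in TAC+EMPA 1, where Cuffdiff gave up the estimate for excess data. Relative depth, read from the steps between low values of genes with 1 exon, was 2.22 for TAC+EMPA 1 and 2.23 for TAC 1, against 1 for TAC 2, the shallowest, and at most 1.32 for the rest.

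**Figure D1:**
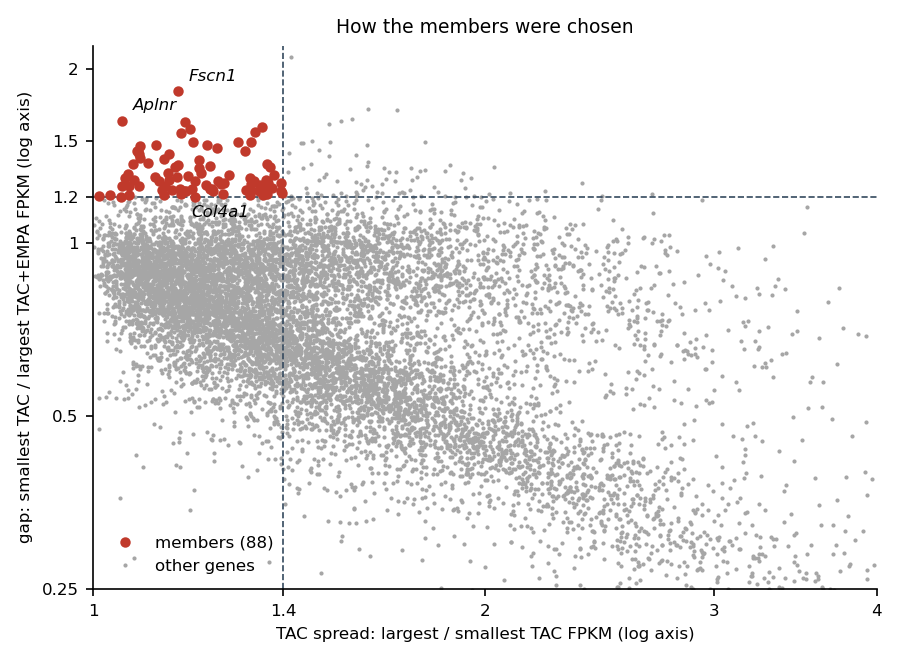
Each point is 1 gene with status OK and a mean FPKM of at least 2. The horizontal axis gives the largest over the smallest TAC FPKM, the vertical axis the smallest TAC over the largest TAC+EMPA FPKM, both as log axes, and dashed lines mark the limits of 1.4 and 1.2. The 88 members (red) fill the upper left corner with gaps of 1.2 to 1.83, and 10056 other genes (grey) are drawn, while 426 genes lie outside the axes or have no ratio.

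The gap, the smallest TAC value over the largest TAC+EMPA value, ran over the members from 1.2 to 1.83 with a median of 1.28. It was at least 1.5 in 7 members and at least 1.3 in 38. The ratio of the group means, TAC+EMPA over TAC, had a median of 0.626 and ran from 0.319 to 0.795, and 33 members were at 60 percent of the TAC mean or lower. On the log2(FPKM + 1) scale the median difference of the members was -0.60, beside 0.03 over all 12391 genes tested. The mirrored rule, which asks the same of genes higher in TAC+EMPA, chose 63 of the 10570 genes (0.596%). Every TAC+EMPA value was below every TAC value in 1128 genes (10.7%), of which the gap and spread limits left the 88. Dropping the limit on the TAC spread alone gave 186 genes (1.76%), so 98 genes with as wide a gap were left out because their TAC values lay further apart.

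Just inside and just outside the limits the genes looked alike. Srpx2, Pop7 and Fam69b entered with gaps of 1.2001, 1.202 and 1.203, while Bcl6b, Clip2 and Iqcc stayed outside at 1.199, 1.199 and 1.199. By TAC spread, Gm12999 entered at 1.397, and Hmgn3 and Tuba1b, an alpha tubulin, stayed outside at 1.403 and 1.411. By level, Mapk8ip1 and Gm11747 entered at mean FPKM of 2.05 and 2.12, and Gm7808 and Ccdc88c stayed outside at 1.998 and 1.96.

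The member with the widest gap was Fscn1 (ENSMUSG00000029581), which encodes fascin, the protein that bundles actin filaments in filopodia. It lies on chromosome 5 from 142960343 to 142973185 in GRCm38, as do all positions here by the GENCODE annotation. Its FPKM was 12.4, 13.7, 10.1 and 12.0 in the TAC+EMPA hearts, against 25.1, 29.2 and 26.7 in the TAC hearts. The highest TAC+EMPA heart reached little over 50 percent of the lowest TAC heart, and TAC 3 sat between TAC 1 and TAC 2. The means were 12.1 ± 1.49 (SD, n = 4) in TAC+EMPA and 27.0 ± 2.05 (SD, n = 3) in TAC. Read back from the steps, the lowest value, in TAC+EMPA 3, corresponds to about 673 fragments, so counting error there was about 3.85 percent.

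Aplnr (ENSMUSG00000044338, chromosome 2, 85136225 to 85139923) encodes the receptor for apelin, a G protein-coupled receptor of growing endothelium, and had the next widest gap at 1.63. Its FPKM was 5.98, 7.51, 4.90 and 8.43 in the TAC+EMPA hearts, against 14.4, 14.2 and 13.7 in the TAC hearts. The TAC hearts were nearly equal, with a spread of 1.05, and the TAC+EMPA hearts differed among themselves by 1.72 times. The means were 6.70 ± 1.57 (SD, n = 4) in TAC+EMPA and 14.1 ± 0.363 (SD, n = 3) in TAC. Apln, the gene of the ligand, was at 1.03, 1.04, 1.13 and 2.11 FPKM in TAC+EMPA, against 1.91, 1.299 and 3.01 in TAC, and its groups overlapped. Relative to Pecam1, a general marker of endothelium, Aplnr was at 0.112, 0.135, 0.0855 and 0.147 in TAC+EMPA, against 0.172, 0.143 and 0.233 in TAC. As a ratio to Pecam1 the groups therefore overlapped, with TAC+EMPA 4 above TAC 2 and with TAC 3 the highest.

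The letters before the start of a few members are shown because Fscn1 and Plekha4, among the 3 members with the widest gaps, both hold the CREB and ATF motif TGACGTCA close to their starts, and Vash1 and Cxcr4, a secreted inhibitor and a receptor of vessel growth, both hold the NRF1 motif. The stretches come from the RefSeq promoter windows of GRCm38.p6, read 5′ to 3′ on the strand of the gene, without any base that GENCODE annotates as exon. Fscn1 is chr5:142960105-142960342 on the plus strand, Plekha4 chr7:45526269-45526329 on the plus strand, Vash1 chr12:86678450-86678699 on the plus strand and Cxcr4 chr1:128592300-128592549 on the minus strand. Capitals mark matches on either strand to the motifs searched.
Fscn1: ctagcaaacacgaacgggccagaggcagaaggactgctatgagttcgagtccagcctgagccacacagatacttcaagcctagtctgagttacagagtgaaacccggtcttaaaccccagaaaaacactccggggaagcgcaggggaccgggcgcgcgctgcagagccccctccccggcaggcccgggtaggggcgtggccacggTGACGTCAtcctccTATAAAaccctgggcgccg
Plekha4: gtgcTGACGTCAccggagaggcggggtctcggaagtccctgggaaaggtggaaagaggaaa
Vash1: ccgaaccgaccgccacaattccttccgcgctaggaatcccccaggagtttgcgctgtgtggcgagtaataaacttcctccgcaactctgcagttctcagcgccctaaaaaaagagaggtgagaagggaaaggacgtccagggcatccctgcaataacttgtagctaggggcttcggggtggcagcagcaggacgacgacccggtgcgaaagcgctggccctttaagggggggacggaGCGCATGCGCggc
Cxcr4: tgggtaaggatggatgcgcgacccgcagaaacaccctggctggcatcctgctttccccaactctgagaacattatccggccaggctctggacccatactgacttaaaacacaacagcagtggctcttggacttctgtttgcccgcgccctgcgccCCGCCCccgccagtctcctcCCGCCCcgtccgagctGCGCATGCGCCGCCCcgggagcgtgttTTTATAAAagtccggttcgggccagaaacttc
In Cxcr4 the NRF1 match overlaps one of its 3 GGGCGG matches, which read CCGCCC on this strand, and the TATAAA matches on both strands overlap.

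A RefSeq window of 300 bases, 250 before and 50 after the start, was found for 64 of the 88 members, and 1 window per gene was searched on both strands. TGACGTCA was in 3 of the 64 (4.69%; Fscn1, Mcam and Plekha4), in 3.29% of the windows of 8003 genes with status OK and a mean FPKM of at least 2, and in 1.88% of 27025 windows in all. The NRF1 motif was in 10 of 64 (15.6%), against 11.3% and 4.78%. The AP-1 motif TGANTCA was in 6 (9.38%; Emp1, F11r, Gfpt2, Plekha4, Sri and Srpx2), against 4.67% and 7.93%. The ETS motifs CCGGAAGT and ACAGGAAG were each in 1 member (1.56%), Tcf3 for the first and Rccd1 for the second, against 9.13% and 3.07% of the 8003. The other motifs were held by the members at 70.3% for GGGCGG of Sp and Klf factors (66.4% of the 8003), 34.4% for CCAAT of NF-Y (38.8%), 12.5% for the E-box CACGTG (10.7%), 10.9% for GGAATG of TEAD factors (12.0%), 10.9% for TATAAA (7.07%) and 3.13% for the interferon response element (2.87%), and no member held a CArG box (1.44%). The GC content of the windows was 61.3% at the median in the members and in the 8003. These matches describe letters in 1 window per gene, and with 64 windows 1 gene moves a share by over 1 percentage point.

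By function the 88 members were sorted into 15 groups after their values had been seen, so the groups describe the members and carry no test. A rule based on gap, level and 60 gene lists selected 53 of the members for naming, and the other 35 are named for their function. The largest group, 12 genes, was basement membrane, microfibrils and other matrix. Then came 10 coding genes with no role given here, 9 noncoding genes and pseudogenes, 9 genes of signaling and membrane protein processing, and 8 receptors and regulators of vessel growth and guidance.

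**Figure D2:**
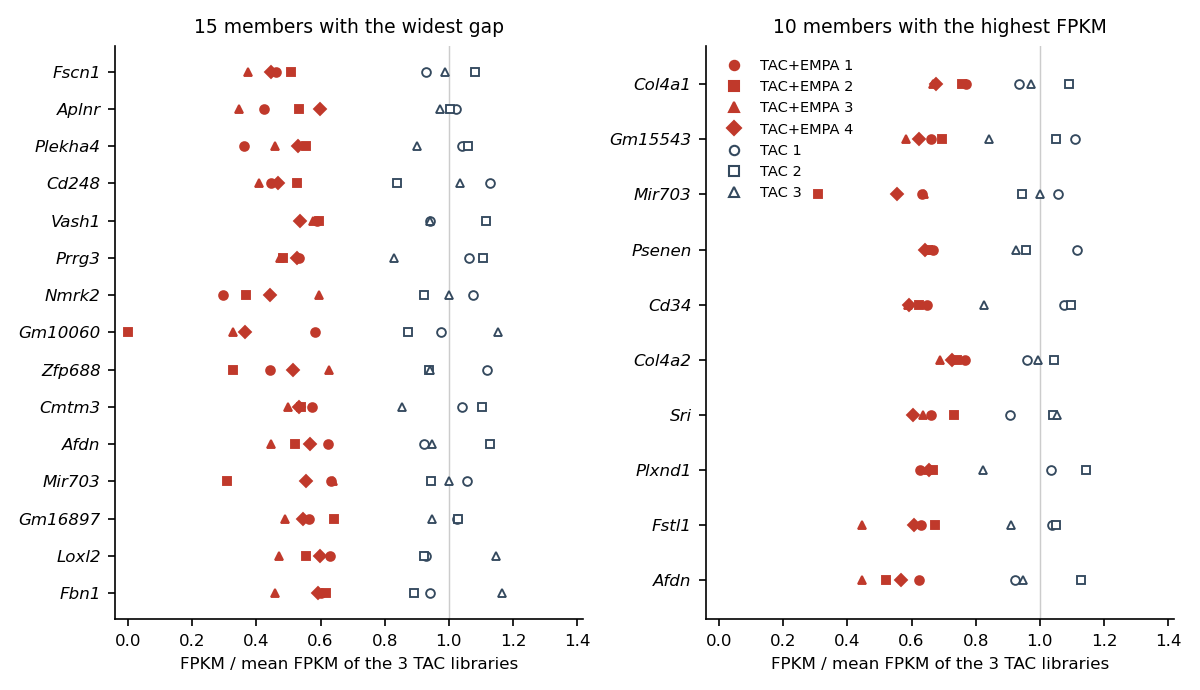
FPKM of each library divided by the mean of the 3 TAC libraries, for the 15 members with the widest gap (left) and the 10 members with the highest mean FPKM (right). Filled red symbols are the 4 TAC+EMPA libraries and open symbols the 3 TAC libraries. Fscn1 and Aplnr have TAC+EMPA means of 0.447 and 0.475 of the TAC mean, Col4a1 and Col4a2 of 0.717 and 0.731, and Gm10060 is listed at 0 in TAC+EMPA 2.

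Receptors and regulators of vessel growth had TAC+EMPA means of 0.475 to 0.65 of the TAC means. Vash1 encodes vasohibin, which endothelial cells secrete and which restrains vessel growth. Its FPKM was 3.18, 3.23, 3.11 and 2.90 in TAC+EMPA, against 5.09, 6.04 and 5.09 in TAC. The 4 TAC+EMPA hearts were within 1.11 times of each other, and the gap was 1.58. Mcam, an adhesion molecule of endothelium and pericytes (CD146), was at 11.7, 11.8, 13.7 and 15.2 in TAC+EMPA, against 23.4, 24.0 and 21.2 in TAC. Cxcr4, the receptor for the chemokine Cxcl12 on tip cells and leukocytes, was at 4.34, 4.68, 3.06 and 4.41 in TAC+EMPA, against 7.2, 6.10 and 6.68 in TAC. TAC 3 was the lowest TAC heart for Mcam and lay between TAC 1 and TAC 2 for Cxcr4.

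In 4 further genes of this group, TAC 3 was the lowest TAC heart by a clear margin. Cd34, a sialomucin of capillary endothelium, was at 65.6, 63.3, 59.8 and 60.2 FPKM in TAC+EMPA, against 109, 111 and 83.7 in TAC. Nrp1, neuropilin-1, a coreceptor for VEGF and class 3 semaphorins, was at 19.2, 19.2, 18.1 and 20.4 in TAC+EMPA, against 31.1, 33.1 and 25.3 in TAC. Plxnd1, the semaphorin receptor plexin D1, was at 36.8, 39.3, 38.3 and 38.5 in TAC+EMPA, against 60.8, 67.2 and 48.3 in TAC. These genes had steady TAC+EMPA values and a TAC 3 value between the 2 groups. Unc5b, a netrin receptor that restrains sprouting, was at 3.68, 3.53, 3.25 and 3.48 in TAC+EMPA, against 6.29, 6.13 and 4.59 in TAC. Over the 8 genes of the group, TAC 3 was at 0.738 to 1.005 of the mean of TAC 1 and TAC 2 with a median of 0.840.

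On a list of 18 tip and angiogenic endothelial genes that reached the level, 9 were members: Aplnr, Mcam, Cxcr4, Cd34, Col4a2, Unc5b, Nid2, Nrp1 and Col4a1. The background is 0.833% of all 10570 genes, but the rule used this contrast and the list was written with earlier results known, so nothing is read from the difference. Of the other 9, Vegfc and Pgf, ligands of VEGF receptors, met the gap and failed on TAC spread. Vegfc was at 2.34, 2.04, 2.16 and 2.39 in TAC+EMPA, against 5.36, 4.92 and 3.29 in TAC, and Pgf was at 1.81, 2.60, 2.49 and 2.39 in TAC+EMPA, against 6.61, 6.03 and 3.43 in TAC. In both TAC 3 was the lowest TAC heart and still above the TAC+EMPA hearts. Dll4, the Notch ligand of tip cells, did not separate the groups, at 6.34, 5.72, 5.50 and 7.05 in TAC+EMPA and 10.99, 14.7 and 6.68 in TAC. Robo4 was at 15.2, 15.05, 15.3 and 18.4 in TAC+EMPA, against 37.4, 49.6 and 18.4 in TAC, with TAC 3 level with TAC+EMPA 4. Of the 10 genes of the list that were tested and are not members, limma called 0 at an adjusted p under 0.05, and 7 were lower and 0 higher at an unadjusted p under 0.05, beside 14.7% lower and 19% higher over all genes tested. Without TAC 3, the rule chose 15 of the 18, beside 17.5% of all genes.

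**Figure D3:**
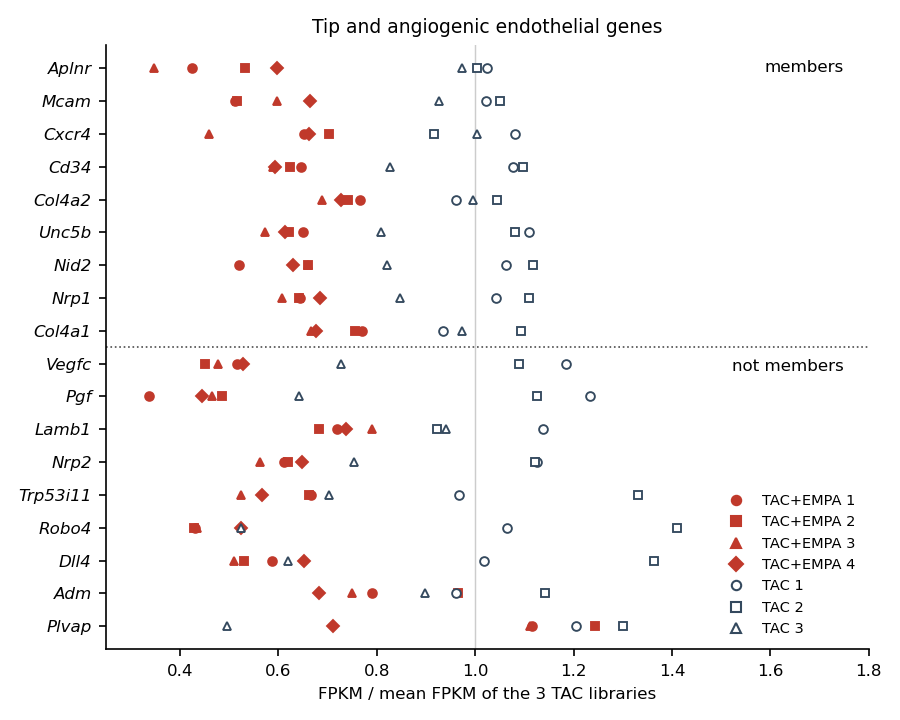
FPKM of each library divided by the mean of the 3 TAC libraries, for the 18 tip and angiogenic endothelial genes that reached the level. Filled red symbols are TAC+EMPA libraries, open symbols TAC libraries, and the dotted line separates the 9 members (above) from the 9 other genes. TAC 3, the open triangle, stays to the right of every red symbol in the members and lies among or near them for Robo4 and Dll4 and to the left of all of them for Plvap.

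General endothelial markers mostly failed on both the TAC spread and the gap. Aplnr and Cd34 were members among the 29 that reached the level (6.90%, beside 0.833% of all genes). The TAC values of the other 27 all spread by more than 1.4. Every TAC+EMPA value was below every TAC value in 16 of the 29, beside 10.7% of all genes. Kdr, the main VEGF receptor, was at 17.6, 17.8, 19.0 and 21.6 FPKM in TAC+EMPA, against 36.1, 38.0 and 22 in TAC, and Pecam1 was at 53.1, 55.4, 57.3 and 57.4 in TAC+EMPA, against 84.2, 99.3 and 58.8 in TAC. In both genes TAC 3 lay just above the highest TAC+EMPA heart. For the 28 listed markers that are not members, the summed FPKM was 1582 to 1787 in TAC+EMPA and 1887 to 4130 in TAC, with the lowest TAC sum in TAC 3, and none of the 28 was at 0 throughout. TAC 3 was nearer to the TAC+EMPA mean in 28 of 28. Of these 28, limma called 22 lower and 0 higher at an unadjusted p under 0.05, beside 14.7% and 19% of all genes tested, and 0 at an adjusted p under 0.05. Without TAC 3, the rule chose 26 of the 29 genes, beside 17.5% of all genes.

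The part that these markers have in the members' values was not tested. The medians of the members are set by the rule, which holds TAC+EMPA below TAC and TAC 3 near the other TAC hearts, so nothing is read from how they compare with the markers. The median member was at 0.633, 0.643, 0.601 and 0.618 of its TAC mean in TAC+EMPA 1 to 4, against 1.03, 1.04 and 0.942 in TAC 1 to 3. The median endothelial marker was at 0.560, 0.555, 0.551 and 0.579 in the TAC+EMPA libraries, against 1.09, 1.3 and 0.594 in the TAC libraries. For 28 fibroblast markers it was 0.836, 0.815, 0.742 and 0.658 in TAC+EMPA, against 1.06, 1.08 and 0.844 in TAC, with sums of 1473 to 1817 in TAC+EMPA and 1889 to 2642 in TAC. Pericyte markers summed to 263 to 302 in TAC+EMPA and 293 to 341 in TAC, and macrophage and monocyte markers to 346 to 424 in TAC+EMPA and 366 to 515 in TAC, so both overlapped between the groups. The 13 smooth muscle markers summed higher in TAC+EMPA, at 2150 to 2251, against 1416 to 1885 in TAC, without overlap. Their medians did overlap, at 0.922, 0.778, 0.867 and 1.44 of the TAC mean in TAC+EMPA, against 1.3045, 0.836 and 0.686 in TAC. Of the 13 markers, 5 had a lower mean in TAC+EMPA, so the higher sum does not hold for the markers as a set. No member was on the list of 21 macrophage markers that reached the level, nor among the 12 of smooth muscle or the 21 of ventricular cardiomyocytes. The rule chose 0.833% of all genes, so lists of this size can hold none.

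**Figure D4:**
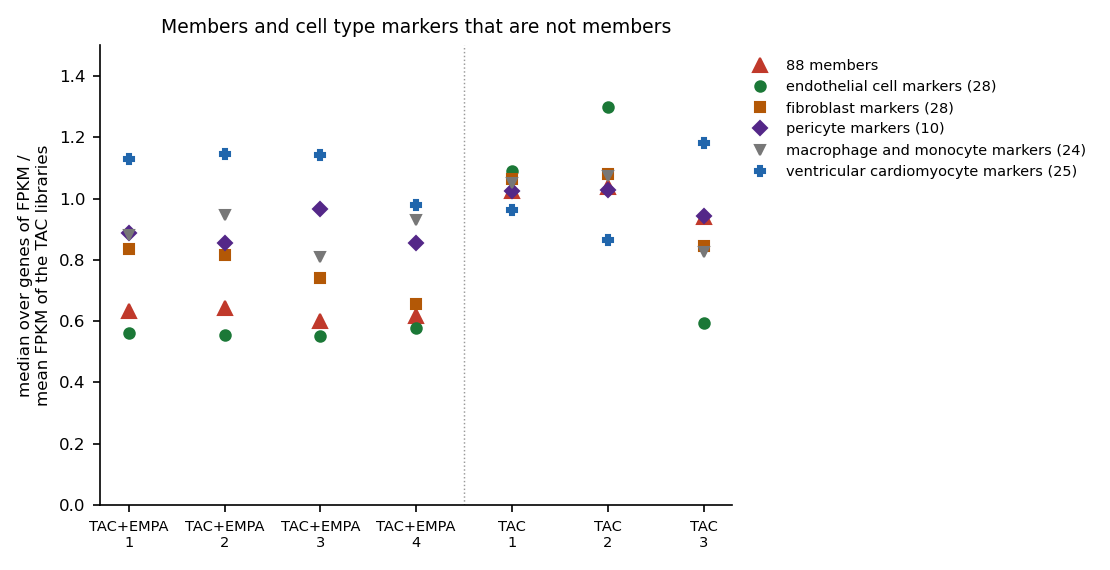
For each library, the median over genes of FPKM divided by the mean FPKM of the TAC libraries, for the 88 members and for marker genes of 5 cell types that are not members (number of genes in the key). TAC+EMPA libraries are left of the dotted line and TAC libraries right of it. In TAC 3 the median endothelial marker is at 0.594, and the members' median of 0.942 there is held near 1 by the limit on the TAC spread.

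The matrix group held 12 genes with TAC+EMPA means of 0.563 to 0.731 of the TAC means. Col4a1 and Col4a2 encode the chains of the main type IV collagen of basement membranes and are the first and sixth members by level. Col4a1 was at 216, 212, 187 and 190 FPKM in TAC+EMPA, against 262, 306 and 273 in TAC. Col4a2 was at 63.8, 61.8, 57.4 and 60.6 in TAC+EMPA, against 80.1, 86.9 and 82.9 in TAC. The ratio of Col4a1 to Col4a2 was 3.38, 3.43, 3.25 and 3.13 in TAC+EMPA, against 3.27, 3.52 and 3.29 in TAC, so the chains kept to a narrow range of ratios in which the groups overlapped. The genes lie head to head on chromosome 8, Col4a1 on the minus strand from 11198423 to 11312826 and Col4a2 on the plus strand from 11312805 to 11449287, and their annotated ends overlap.

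Other basement membrane genes shared the pattern. Col15a1, a collagen at the outer face of vessel basement membranes, was at 25.6, 28.4, 33.1 and 31.2 in TAC+EMPA, against 45.3, 46.3 and 43.6 in TAC, with a TAC spread of 1.06. Nid2, nidogen-2, which links laminin to type IV collagen, was at 5.58, 7.09, 7.11 and 6.78 in TAC+EMPA, against 11.4, 12.0 and 8.84 in TAC. Lamb1, a laminin chain on the same list, missed the gap at 1.17, with 16.1, 15.3, 17.6 and 16.5 in TAC+EMPA, against 25.4, 20.6 and 21 in TAC. Of 17 collagen genes that reached the level, 4 were members (the fourth is Col5a1; 0.833% of all genes at the level), and 10 had every TAC+EMPA value below every TAC value (10.7% of all). Of the 16 collagen genes tested that are not members, 7 were lower and 0 higher at an unadjusted p under 0.05, beside 14.7% and 19% of all genes tested, and 0 passed at an adjusted p under 0.05.

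Over the 12 matrix genes TAC 3 was the lowest TAC heart in 7 and the highest in 3. Loxl2, a lysyl oxidase that crosslinks collagen, was at 3.39, 2.97, 2.52 and 3.21 FPKM in TAC+EMPA, against 4.98, 4.95 and 6.16 in TAC. Fbn1, fibrillin-1 of the microfibrils, was at 6.42, 6.61, 4.91 and 6.35 in TAC+EMPA, against 10.1, 9.53 and 12.5 in TAC, and Col5a1, which regulates the width of collagen fibrils, at 7.04, 7.52, 5.56 and 6.82 in TAC+EMPA, against 11.4, 9.93 and 12.0 in TAC. These are the 3 in which TAC 3 was highest, and TAC+EMPA 3 was the lowest heart of all in each. Loxl1, a lysyl oxidase of elastic fibres, was at 11.4, 11.3, 7.60 and 8.89 in TAC+EMPA, against 16.8, 17.3 and 16 in TAC. Fstl1, a secreted glycoprotein made by cardiac fibroblasts, was at 35.9, 38.4, 25.3 and 34.6 in TAC+EMPA, against 59.1, 59.9 and 51.8 in TAC. Mfap2, a microfibril protein, Vtn, vitronectin, which cardiac pericytes express, and Srpx2, a secreted protein with a role in endothelial migration, made up the rest, with gaps of 1.2 to 1.21. On the list of other matrix glycoproteins and proteoglycans 5 of 57 genes were members, and without TAC 3 the rule chose 24, beside 0.833% and 17.5% of all genes.

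Surface proteins of mural and stromal cells were few. Cd248, endosialin, a marker of pericytes and fibroblasts that is raised in scarring tissue, lies on chromosome 19 from 5068078 to 5070682. It was at 3.49, 4.13, 3.20 and 3.67 FPKM in TAC+EMPA, against 8.83, 6.56 and 8.10 in TAC, means of 3.62 ± 0.393 (SD, n = 4) in TAC+EMPA and 7.83 ± 1.16 (SD, n = 3) in TAC. Its gap was 1.59, the fourth widest, and here TAC 2, not TAC 3, was the lowest TAC heart. Cspg4, the NG2 proteoglycan of pericytes, was at 4.31, 4.4, 4.17 and 4.37 in TAC+EMPA, against 6.72, 5.61 and 5.45 in TAC. Pdpn, podoplanin of lymphatic endothelium and activated stroma, was at 2.05, 2.02, 2.12 and 2.42 in TAC+EMPA, against 3.26, 3.13 and 3.31 in TAC. Of 13 pericyte markers that reached the level, 3 were members (Mcam, Cspg4 and Vtn), beside 0.833% of all genes. Without TAC 3 the rule chose 5 of the 13, beside 17.5% of all genes.

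**Figure D5:**
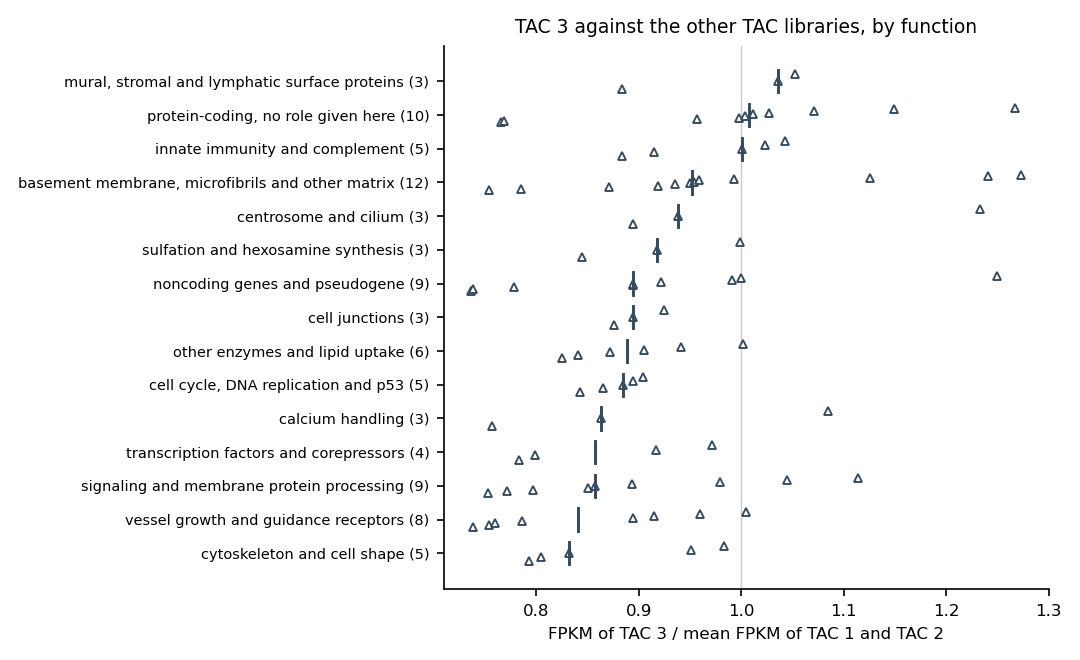
FPKM of TAC 3 divided by the mean of TAC 1 and TAC 2 for each member (triangles), grouped by function with the number of genes in brackets and the median as a bar. Vessel receptors and cytoskeletal genes have medians of 0.840 and 0.832, and surface proteins of mural and stromal cells a median of 1.04.

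Genes of cell shape and junctions held some of the widest gaps. Beside Fscn1 the cytoskeletal members were Marcks, which binds actin at the plasma membrane, Gas2, which links actin and microtubules, Emp1, a tetraspan membrane protein, and Rnd2, with gaps of 1.22 to 1.38. Emp1 was the most abundant of them, at 27.8, 26.4, 21.9 and 24.6 FPKM in TAC+EMPA, against 39.9, 45.3 and 34.3 in TAC. Of 71 actin and actin-binding genes on the list that reached the level, 2 were members, Fscn1 and Marcks, beside 0.833% of all genes. Afdn, afadin, which couples nectins to actin at adherens junctions, was at 33.2, 27.7, 23.8 and 30.2 in TAC+EMPA, against 49.2, 60.1 and 50.5 in TAC. F11r and Jam3, the junctional adhesion molecules A and C of endothelial tight junctions, had means of 23.1 ± 2.00 and 6.04 ± 0.875 (SD, n = 4) in TAC+EMPA, against 35.1 ± 4.76 and 9.70 ± 1.003 (SD, n = 3) in TAC.

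Of the genes of proliferation, Ccnd1, cyclin D1, which drives entry into the cell cycle, was at 13.7, 13.8, 14.7 and 13.6 FPKM in TAC+EMPA, against 23.3, 20.9 and 18.6 in TAC. Mcm6, of the replicative helicase, Pola2, of DNA polymerase alpha, Lrwd1, which binds the origin recognition complex, and Trp53, the tumour suppressor p53, had TAC+EMPA means of 0.643 to 0.709 of the TAC means. In all 5 of these genes TAC 3 was the lowest TAC heart. Of 28 listed cell cycle genes that reached the level 2 were members, Ccnd1 and Mcm6, beside 0.833% of all genes. Centrosome and cilium genes were Cep295 and Cspp1, which act in centriole and spindle assembly, and B9d1, of the ciliary transition zone, with gaps of 1.28 to 1.29.

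Members with a role in innate immunity numbered 5. Cd55, which restrains complement on cell surfaces, was at 4.22, 4.68, 3.64 and 4.18 in TAC+EMPA, against 7.83, 6.58 and 6.37 in TAC. Usp18, which removes ISG15 from proteins, was at 2.10, 1.70, 1.74 and 2.04 in TAC+EMPA, against 2.85, 3.90 and 3.45 in TAC. It was the 1 member among 52 interferon-stimulated genes that reached the level (1.92%, beside 0.833% of all genes). In 28 of the 52 every TAC+EMPA value was below every TAC value, beside 10.7% of all genes. At an unadjusted p under 0.05, limma called 43 of the 57 tested non-members lower and 1 higher, beside 14.7% and 19% of all genes tested. It called 0 at an adjusted p under 0.05. Nos2, inducible nitric oxide synthase, was at 1.59, 2.35, 1.53 and 2.38 in TAC+EMPA, against 3.60, 3.15 and 3.38 in TAC. Adar, an RNA editing enzyme, and Pycard, the inflammasome adaptor ASC, had TAC+EMPA means of 0.694 and 0.649 of the TAC means.

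Signaling members were mostly regulators. Plekha4, a phosphoinositide-binding adaptor, was at 1.32, 2.03, 1.68 and 1.94 FPKM in TAC+EMPA, against 3.81, 3.88 and 3.30 in TAC, a gap of 1.62. Cmtm3, a chemokine-like membrane protein, was at 7.45, 6.999, 6.47 and 6.92 in TAC+EMPA, against 13.5, 14.4 and 11.1 in TAC. Psenen, a subunit of the gamma-secretase that cleaves Notch, was at 79.8, 77.9, 79.3 and 76.7 in TAC+EMPA, against 134, 115 and 111 in TAC, and its TAC+EMPA hearts lay within 1.04 times of each other. Psenen was the 1 member among 20 Notch pathway genes that reached the level (5%, beside 0.833% of all genes), and 2 others met the gap and failed on TAC spread. In 5 of the 20 every TAC+EMPA value was below every TAC value, beside 10.7% of all genes. At an unadjusted p under 0.05, limma called 11 of the 22 tested non-members lower and 1 higher, beside 14.7% and 19% of all genes tested. It called 0 at an adjusted p under 0.05. Dact3, an inhibitor of Wnt signaling, Dusp7, a phosphatase of ERK, Mapk8ip1, a scaffold of JNK, Ppp1r1a, an inhibitor of protein phosphatase 1, Ralb, a Ras-like GTPase, and Frmd8, a partner of iRhom proteins, had TAC+EMPA means of 0.509 to 0.795 of the TAC means. Ralb had the smallest difference of all members, at 10.46, 10.6, 9.97 and 10.2 in TAC+EMPA, against 12.9, 13.1 and 12.8 in TAC.

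Transcriptional regulators among the members were Hic1, a repressor found in mesenchymal progenitors, Tcf3, which encodes the E-box factors E12 and E47, Cbfa2t3, a corepressor of the ETO family, and Zfp688, a zinc finger protein. Of these Zfp688 varied most within TAC+EMPA, at 2.51, 1.85, 3.57 and 2.93 in TAC+EMPA, against 6.37, 5.34 and 5.36 in TAC. Genes of calcium handling included Sri, sorcin, which binds ryanodine receptors, and Stim2, a calcium sensor of the endoplasmic reticulum. Sri was at 39.5, 43.7, 37.9 and 36.1 in TAC+EMPA, against 54.1, 62.1 and 63.0 in TAC, and TAC 3 was its highest heart.

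Nmrk2, nicotinamide riboside kinase 2 of muscle, which rises in stressed hearts, was 1 of 24 listed cardiac stress genes that reached the level. It was the 1 member among them (4.17%, beside 0.833% of all genes). The 25 tested non-members of this list had a median log2 difference of 0.31. At an unadjusted p under 0.05, limma called 1 of these 25 lower and 5 higher, beside 14.7% and 19% of all genes tested. At an adjusted p under 0.05 it called 0. Nmrk2 was at 2.08, 2.58, 4.16 and 3.09 FPKM in TAC+EMPA, against 7.53, 6.45 and 7 in TAC. Its means were 2.98 ± 0.890 (SD, n = 4) in TAC+EMPA and 6.995 ± 0.542 (SD, n = 3) in TAC. In contrast to most members, TAC+EMPA 3 was the highest heart of its group here. Other enzymes were Prcp, a carboxypeptidase that cleaves angiotensin II, Nme3, a nucleoside diphosphate kinase, Qtrt1, which places queuosine in tRNA, and Pop7, a subunit of RNase P, with Scarb1, the HDL receptor, beside them. Papss1 and Chst14, which make sulfate donor and dermatan sulfate, and Gfpt2, which starts hexosamine synthesis, had TAC+EMPA means of 0.647 to 0.725 of the TAC means. Lists without a member are near the background of 0.833%: 0 of 92 oxidative phosphorylation genes, 82 cytosolic ribosomal protein genes and 48 lysosomal genes that reached the level were members. Every TAC+EMPA value was below every TAC value in 24 of the 92, 30 of the 82 and 2 of the 48 (10.7% of all genes). Without TAC 3 the rule chose 59, 73 and 6 of them, beside 17.5% of all genes.

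The noncoding members need more care. Gm15543, at 152, 160, 134 and 144 FPKM in TAC+EMPA, against 256, 242 and 194 in TAC, is an antisense RNA over Casc1 and the second member by level. Gm16897 (1.86, 2.12, 1.61 and 1.8 in TAC+EMPA, against 3.38, 3.39 and 3.12 in TAC) overlaps, on the opposite strand, Cd34, itself a member, on chromosome 1 from 194955759 to 194976960. The libraries were stranded, but whether strand was used in counting is not given in the sources used here, so fragments of such pairs cannot be told apart. In all, 42 of the 88 members overlap an annotated gene on the other strand and 15 one on the same strand, such as Pop7 with Epo and Nme3 with Mrps34. Mir703 (109 bases; 123, 60.4, 125 and 108 in TAC+EMPA, against 206, 184 and 195 in TAC) and the pseudogene Gm10060 (111 bases; 22.8, 0, 12.8 and 14.3 in TAC+EMPA, against 38.1, 34.1 and 45.1 in TAC) are shorter than a usual fragment, which makes their FPKM uncertain, and Gm10060 can share fragments with its parent gene. The other noncoding members were AC158954.1, Gm11747, Gm14005, 2010320M18Rik and Gm12999. The coding members with no role given were Prrg3, Mospd3, Tcp11l1, Lrrn4cl, Dip2a, Rccd1, Fam69b, Fam189b, Nrep and 3110009E18Rik. Of these Prrg3 had the widest gap, at 2.74, 2.48, 2.43 and 2.70 in TAC+EMPA, against 5.46, 5.67 and 4.26 in TAC.

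The rule set a lower limit on level, and above it the members lay lower than the genes as a whole. Their median of mean FPKM was 5.79, against 10.2 over the 10570 genes, and 39.8% of members lay between 2 and 5 FPKM, against 26.5%. Only 6.82% were at 50 FPKM or more, against 14.2%. Median transcript length was 2978 bases in members and 3200 over the genes, and 89.8% of members were protein-coding, against 93.2%. Within TAC+EMPA, replicate 3 was the lowest heart for 44 of 88 members (50%), against 19.96% of the 10570 genes and 21.5% of the 4807 whose TAC values lay within 1.4 of each other. Within TAC, replicate 3 was the lowest for 55 (62.5%) and the highest for 14 (15.9%), beside 39.7% and 41.8% of those 4807 genes. The rule used the values of both groups, and the 4807 genes did not have to meet its gap, so nothing is read from these shares. The lowest estimated fragment number of a member in any library had a median of 347, and 12 of the 86 members with an estimate were under 100 in some library, where counting alone adds over 10 percent error.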

How the data were processed

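Polyadenylated RNA of 7 hearts (TAC+EMPA, n = 4, and TAC, n = 3) was sequenced from stranded libraries. Per the submitters' processing notes, the authors used TopHat2 2.0.13, Cufflinks 2.2.1 and Cuffdiff with build GRCm38, and their deposited values are FPKM of each gene in each library. Scaling between libraries and use of strand are not given in the sources used here. FPKM divides by transcript length and library size, so a rise of abundant genes lowers the rest. The deposited fold changes, p-values and term tables of the authors were not used, and total fragment numbers are unknown.

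The rule was applied to the 7 columns as deposited, and 26 symbols turned into dates were restored from gene IDs. Fragments were estimated from low values of single-exon genes after subtracting 200 bases from the length, and 98.9% to 99.2% of the values read were within 0.1 of a whole number. limma 3.58.1 in R 4.3.3 compared log2(FPKM + 1) of the groups over the 12391 genes whose mean FPKM was 1 or more, two-sided, with trended variance and Benjamini-Hochberg adjustment, and was tested on simulated data. All differences are TAC+EMPA minus TAC and shrink for genes of low level. Members, gene lists and motifs were chosen with earlier results of these data known, and functions were assigned after the members were seen. Genes were named by gap (15), level (10), lists (up to 6 each) and nearness to a limit. One result is not reported here. The p-values set the difference of the group means against the spread between hearts. Alternatives covered the limits of the rule, pseudocount, filter, median centring, quantile normalization, a correction for length (loess, span 0.5), a replicate block and each library left out in turn. Python 3.11.15 and pandas 2.3.3 were used.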

Additional observations from a re-analysis of the deposited data

Results flagged for a closer look

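Within the TAC+EMPA group, 74 values (named members and summed cell type markers) were examined for 1 heart far from the other 3, and 4 were set apart, where chance gives about 3.7 at 1 in 20. For Fbn1 the gap of TAC+EMPA 3 (4.91 FPKM) to the nearest of the other hearts (6.35 to 6.61) was 0.849 of the group's range. For Hic1 it was also 0.849, with TAC+EMPA 3 at 4.36 and the others at 4.61 to 4.66. The summed fibroblast markers were lowest in TAC+EMPA 4, at 1473 FPKM against 1760 to 1817 in the others (0.834 of the range). The summed hepatocyte markers were highest in TAC+EMPA 4, at 130 FPKM against 35.9 to 44.9 (0.903 of the range), beside 35.6 to 77.3 in the TAC hearts. Medians over markers were not among the 74 values. The median hepatocyte marker was at 7.13 of its TAC mean in TAC+EMPA 4, against 0.399 to 0.481 in the others. For 10 skeletal muscle fiber markers it was 129.9 there, against 0.766 to 4.01, though their sum was lowest there, at 4770. The fibroblast sum is set apart by a different heart than Fbn1 and Hic1.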

How the results depend on the processing

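The choice of members rested on TAC 3. Leaving out each library in turn, the rule chose 111 to 1852 genes, with 1852 without TAC 3 and at most 143 otherwise. Of the 88 members, 85 to 88 were among them. Leaving out a library cannot make a member fail the gap or the TAC spread, only the mean FPKM, so nothing is read from their staying. It chose 53 genes at a mean FPKM of at least 5, 38 at a gap of 1.3 and 186 with no limit on the TAC spread. Under median centring, quantile normalization and length correction it chose 103, 103 and 93, sharing 78, 73 and 61 with the members. The median log2 difference of the members ran from -0.67 to -0.56 over the alternatives. Across libraries left out, limma called 0 to 2932 genes lower and 0 to 3681 higher at an adjusted p under 0.05, with at most 4 lower and 2 higher unless TAC 3 was left out, and with no filter on low values 2 lower. At an unadjusted p under 0.05 it called 836 to 3286 lower and 801 to 4029 higher. Leaving out a library gave 9 to 15 genes on the tip cell list and 2 to 26 endothelial markers. It gave 4 to 6 collagens, 5 to 24 other matrix genes and 3 to 5 pericyte markers. These lists were chosen for it after the data had been seen. Each count was highest without TAC 3, and collagens were as many without TAC 1. Without TAC 3 these were 15 of 18, 26 of 29, 6 of 16, 24 of 57 and 5 of 13 genes at the level. The share of all genes was then 17.5%. Every one of the 88 members kept a negative difference in each limma alternative. The choice fixes this sign except under median centring, quantile normalization and the length correction, which rescale the values. For the 60 named genes, 658 alternative values moved by less than the spread within TAC+EMPA and 62 by more, with none changing sign. Their sign was fixed in the same way, since in all 60 every TAC+EMPA value was below every TAC value. Whether the shared replicate numbers pair the hearts is not stated by the labels. Deviations of same-numbered hearts correlated at 0.10, 0.08 and -0.03, and those of differently numbered hearts at -0.17 to 0.06. So few pairs cannot decide the question. With the replicate block limma called 0 genes at an adjusted p under 0.05. At an unadjusted p under 0.05 it called 1314 lower and 1839 higher, and the member median was -0.60. Fragment numbers per library are estimates, so depth limits the members under 100 fragments most.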
